A study of Mus musculus with 8 samples.

Results

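The cells described are the Il7r+ early lymphoid cells of mouse bone marrow: 426 of 29891 sequenced cells. They were chosen by their own counts of unique molecular identifiers (UMIs, each standing for 1 captured RNA molecule): at least 1 UMI of Il7r, at least 1 of Dntt or Flt3, none of Procr and none of Cd79a. Il7r encodes the alpha chain of the interleukin-7 receptor, Dntt the template-independent polymerase that adds bases at antigen receptor joints, and Flt3 a receptor tyrosine kinase of early progenitors. Procr marks stem cells and Cd79a encodes a signalling chain of the B cell receptor, so that both ends of the lymphoid path were left out. These 5 genes chose the cells, and their values below are description without a test.

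In mouse bone marrow, lymphoid-primed multipotent progenitors (LMPP) with high Flt3 give rise to common lymphoid progenitors, which gain the interleukin-7 receptor. The receptor pairs its alpha chain with the common gamma chain encoded by Il2rg and signals through Jak1, Jak3 and the Stat5 factors, among whose target genes are Socs2, Cish, Bcl2 and Pim1. Among common lymphoid progenitors, surface Ly6D separates cells that lean to the B lineage from those that still give T, NK and dendritic cells, and Ebf1 followed by Pax5 sets the B cell programme. Plasmacytoid dendritic cells, which carry Siglec-H, can also arise from Il7r+ progenitors.

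The cells came from a study of gut microbiota and blood-forming cells. Female B6 (C57BL/6) mice aged 3 to 4 months were either kept in a specific-pathogen-free facility (SPF) or housed for 1 month with conventionally born mice in their facility (CVT). KL cells, sorted from the marrow of both groups as CD117 (c-Kit) positive and negative for CD3, CD4, CD8, CD45R, CD11b, TER119 and GR1, were pooled from 2 or 3 mice into 4 SPF and 4 CVT pools, and each pool gave 1 single-cell 3′ library. A pool was therefore the replicate, single mice could not be told apart within it, and the CD45R gate kept mature B cells and a share of plasmacytoid dendritic cells out. The pool number was read from the end of each cell's name and matched to the numbered sample labels; the cell totals this gives per group differ slightly from those stated for the study, and at least 1 other assignment of the numbers would come about as near to them. Each CVT against SPF value rests on that match.

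The 426 cells lay in all 8 pools, with 31, 58, 35 and 59 cells in SPF pools 1, 2, 7 and 8 and 83, 53, 43 and 64 in CVT pools 3, 4, 5 and 6. Pools held 1888 to 4845 cells and 19041749 to 59812346 UMIs, of which the Il7r+ cells supplied 342231 to 876236. The median Il7r+ cell had 10476 UMIs against 8964 for all cells, and mitochondrial genes took 2.79% to 3.50% of the Il7r+ UMIs of a pool. Cell barcodes were shared between pools by 1048 cells, 17 of them Il7r+, but no barcode was shared between 2 Il7r+ cells.

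An Il7r UMI was found in 647 cells. The 221 that were left out comprised 120 with Cd79a, 5 with Procr and no Cd79a, and 96 with neither Dntt nor Flt3. In erythroid cells, taken as cells with Klf1 and Car1 but no Cd79a, the receptor should be absent. Of 7677 such cells 0.443% had an Il7r UMI, and 20 of them met the rule and stayed among the 426; the other 7657 had Il7r in 0.183% at a median depth of 11204 UMIs, against 2.16% of all cells. Among the Il7r+ cells, 220 had 1 Il7r UMI and 105 had at least 3; 342 had both Dntt and Flt3, 50 had Dntt only and 34 had Flt3 only.

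The label was checked against other early lymphoid markers. Satb1, a chromatin organizer of early lymphoid cells, had a UMI in 79.3% of Il7r+ cells, Cd27 in 80.8% and Notch1 in 57.7%, against 23.5%, 50.9% and 13.5% of all other cells. Markers of committed lineages were mixed. Blnk, Ebf1 and Mzb1, genes of the B lineage list, had a UMI in 29.3%, 14.3% and 10.1% of Il7r+ cells, against 1.61%, 1.21% and 1.19% of all other cells, and Cd79b, the partner of Cd79a, in 36.4% against 25.9%. Pax5 and Cd3e had no UMI in 4770913 Il7r+ UMIs, and Vpreb1 reached 3.35 counts per 1000000 UMIs (CPM), close to 2.92 CPM in the erythroid cells. Pax5 and Vpreb1 averaged or summed to 43.3 and 328 CPM in cells with Cd79a, which the rule left out. Their low values here follow in part from the rule and are no check of the label. Myeloid granule RNA was present in many cells, with Mpo (myeloperoxidase) in 81.9% of Il7r+ cells, but it was also in 68.5% of erythroid cells, and Elane (neutrophil elastase) stood at a mean over pools of 104 CPM in Il7r+ against 297 CPM in erythroid cells. Most of the cells carried early lymphoid RNA, but 20 were among the cells with Klf1 and Car1 above, and a subset with dendritic genes and one with T and innate lymphoid genes are given below.

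Il7r itself varied little between pools, from 155.6 to 187 CPM with a median of 172.5 CPM. Dntt ranged from 1286 to 2455 CPM in the Il7r+ cells of the 8 pools, and Flt3 from 204 to 261 CPM. At the edge of the rule, cells with exactly 1 Il7r UMI had 1546 CPM of Dntt, 31.2 CPM of Blnk and 11.6 CPM of Ebf1. The cells with at least 3 Il7r UMIs had 2212, 64.2 and 48.7 CPM of the same genes. The 2485 cells just outside it, with Dntt and Flt3 but no Il7r UMI, had 7.16 CPM of Blnk and 1.58 CPM of Ebf1.

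**Figure D1:**
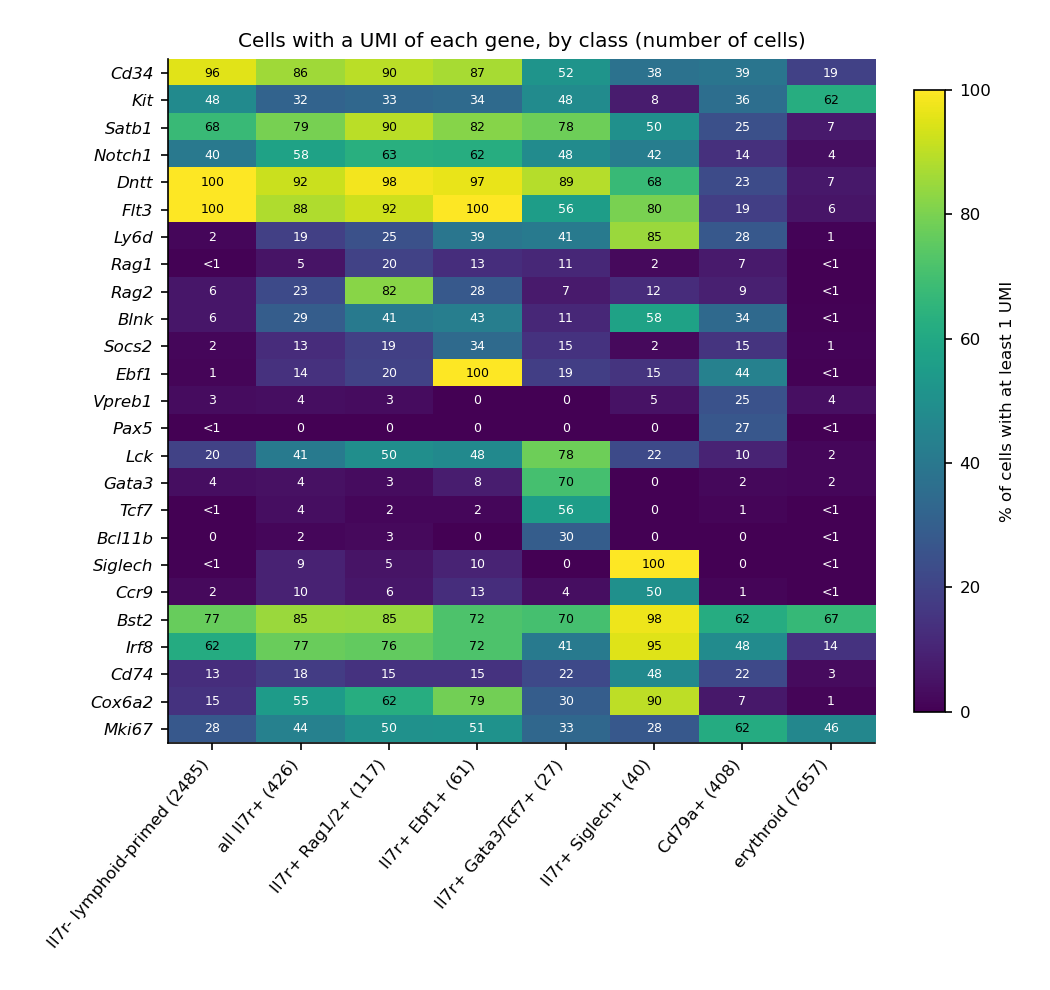
Share of cells with at least 1 UMI of each gene (rows, italic), by class of cells (columns, with the number of cells), coloured from 0 to 100%. The Il7r+ columns keep Satb1 and Notch1 while the Ebf1, Gata3 or Tcf7, and Siglech columns, which overlap in part and were chosen on those genes, differ in Lck, Bcl11b, Ccr9, Bst2 and Cd74.

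The most alike cells in the data were the 2485 Il7r- lymphoid-primed cells, which had both Dntt and Flt3 but no UMI of Il7r, Procr or Cd79a. Their comparison with the Il7r+ cells asks what else differs where the receptor is detected, and was made on UMIs summed per pool and class with edgeR's quasi-likelihood test and pool as a block. Of 7195 genes tested, 464 (6.45%) were higher in Il7r+ cells and 398 (5.53%) lower at an adjusted p under 0.05, and 261 and 226 of these differed in that direction in all 8 pools. The median Il7r- cell had 8978 UMIs, fewer than the median Il7r+ cell, and the part of depth in the calls was examined by thinning alone. When classes were set on cells thinned to 2759 UMIs each, an alternative chosen after seeing the data, 702 of the 862 called genes could be tested, 686 kept their direction and 270 were called again. Those thinned classes held 170 Il7r+ cells by the rule. A cell that lost its Il7r UMIs in thinning could count as Il7r-. Calls lost there can therefore come from depth, from fewer cells or from such cells, which cannot be told apart. Over all genes, that alternative called 156 of 4867 higher and 157 lower, beside which the list counts with thinned classes below can be set.

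Genes of lymphoid commitment differed in the main comparison, and fewer were called after thinning. Of the 12 tested genes of the lymphoid priming list, 6 were higher (Satb1, Notch1, Rag2, Ly6d, Lsp1 and Mn1) and 1 was lower (Ltb, lymphotoxin beta), with a median log2 fold change of 0.23 against 0.00 over all genes. With classes set on thinned counts, 1 of 9 was higher (Ly6d) and 1 lower (Ltb). The median was then 0.002 against -0.002 over all genes.

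Ly6d, the surface protein named above, had the largest fitted difference, and passed the filter on low counts through the Il7r+ pools, where it was high. Its level in Il7r+ cells ran from 46.8 CPM to 628 CPM over the pools with a median of 264 CPM, and in Il7r- cells from 0.73 to 9.03 CPM with a median of 2.34 CPM. The classes did not overlap and the log2 fold change was 5.94 ± 0.20 (SE; edgeR adjusted p = 3.18e-21). Without the Siglech+ cells, Ly6d was at 3.42 to 109.9 CPM over the Il7r+ pools, so that most of its RNA came from that subset, and it then did not pass the filter on low counts.

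Rag2, a subunit of the recombinase that joins antigen receptor segments, was at 12.1 to 37.0 CPM over the Il7r+ pools, median 22.8 CPM, and at 3.84 to 9.46 CPM in the Il7r- pools. Every Il7r+ pool was above every Il7r- pool, and the log2 fold change was 1.89 ± 0.21 (edgeR adjusted p = 2.67e-08). Like Ly6d, Rag2 passed the filter on low counts only through the Il7r+ pools, where it was high. Notch1, the receptor that directs lymphoid progenitors to the T lineage, was at 78.8 to 111 CPM against 44.5 to 68.6 CPM (log2 fold change 0.65 ± 0.09, edgeR adjusted p = 3.87e-06). Ltb went the other way, at 8.77 to 39.1 CPM in Il7r+ against 38.5 to 70.2 CPM in Il7r- cells (-1.49 ± 0.16, edgeR adjusted p = 2.29e-08).

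Genes of the receptor's own pathway differed in both directions. In the interleukin-7 signalling list, 2 of 9 tested genes were higher (Socs2 and Bcl2) and 3 lower (Jak1, Crlf2 and Pim1), with a median log2 fold change of -0.09. Thinned classes left 0 of 8 higher and 1 lower (Crlf2), so that neither Socs2 nor Bcl2 kept its call. Socs2, a feedback inhibitor of cytokine receptors, was at 11.8 to 38.8 CPM over the Il7r+ pools, median 19.5 CPM, and at 0.73 to 6.35 CPM in the Il7r- pools, median 2.02 CPM. The classes did not overlap (3.06 ± 0.28, edgeR adjusted p = 6.93e-10), although only 54 Il7r+ cells had a Socs2 UMI and 1 cell held 12% of them. Socs2 also passed the filter on low counts only through the Il7r+ pools, where it was high. Bcl2, the survival factor, was at 200.1 to 324 CPM against 187 to 219 CPM, with overlap (0.27 ± 0.06, edgeR adjusted p = 0.00181). Crlf2, whose product pairs with the interleukin-7 receptor alpha chain to bind thymic stromal lymphopoietin, was at 41.4 to 81.0 CPM against 79.2 to 97.7 CPM (-0.46 ± 0.09, edgeR adjusted p = 0.000469). Il2rg, Stat5a and Stat5b did not pass the test, with log2 fold changes of -0.22, 0.04 and -0.09.

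Among lymphoid transcription factors, 6 of 14 tested genes were higher and 2 lower, with a median log2 fold change of 0.18. Ets1, a factor of T, B and NK cells, had the largest increase at 1.46 ± 0.19 (edgeR adjusted p = 6.1e-07), followed by Ikzf1 (Ikaros) at 0.60, Foxp1 at 0.45 and Mef2c at 0.42. Ets1 passed the filter on low counts mainly through the Il7r+ pools, where it was high. Ikzf2 (Helios) was lower at -0.82 ± 0.13 and Spi1, which encodes PU.1, at -0.48 ± 0.07. With classes set on thinned counts, 2 of 13 were higher and 2 lower.

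The B lineage list had 6 tested genes, of which 4 were higher (Blnk, Cnn3, Myl4 and Ptpn6) and none was lower. Thinned classes left 2 of 5 higher (Blnk and Cnn3) and none lower. Blnk, the adaptor of B cell receptor signalling, was at 24.3 to 51.4 CPM over the Il7r+ pools, median 36.1 CPM, and at 3.78 to 9.92 CPM in the Il7r- pools, with no overlap (2.41 ± 0.17, edgeR adjusted p = 1.48e-12). It passed the filter on low counts only through the Il7r+ pools, where it was high. Ebf1 did not pass the filter on low counts, and DESeq2, run without that filter, called it higher among 7 of 18 genes of the list. Over all genes, DESeq2 called 361 of 15989 higher. The Il7r+ pools of Ebf1 lay between 7.39 and 46.1 CPM and its Il7r- pools between 0.24 and 3.84 CPM, without overlap. The pre-B cell receptor genes did not follow, since Vpreb1 and Igll1 averaged 3.04 and 0.43 CPM in Il7r+ against 3.67 and 0.35 CPM in Il7r- cells. Cells with Cd79a were left out of both classes, so these low values follow in part from the choice of cells.

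Lck, the proximal kinase of T and NK cell receptors, was higher in Il7r+ cells (1.19 ± 0.13, edgeR adjusted p = 1.53e-08), and Nkg7, a granule protein gene, was lower (-0.26 ± 0.08); only 4 genes of the T, NK and innate lymphoid list could be tested. All 5 tested genes of the Gimap family, small GTPases of lymphocytes, were higher with a median log2 fold change of 0.57, and Gimap6 was at 106.2 to 181 CPM against 66.0 to 117 CPM (0.57 ± 0.09, edgeR adjusted p = 7.55e-06). With classes set on thinned counts, 1 of these 5 was called. Of 11 homing and adhesion genes, 5 were higher (Cxcr4, Selplg, Itga4, Cd44 and Cd47) and none lower. Thinned classes left 1 of 10 higher (Selplg) and none lower. By the naming rule, the largest increases outside the lists were Arpp21, which encodes a cyclic AMP-regulated phosphoprotein (2.48 ± 0.14), Tmem108 (2.20 ± 0.18) and Bfsp2 (2.12 ± 0.18). Tmem108 and Bfsp2 averaged 36.5 and 33.5 CPM in Il7r+ against 8.49 and 7.70 CPM in Il7r- cells. Both passed the filter on low counts mainly through the Il7r+ pools, where they were high.

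**Figure D2:**
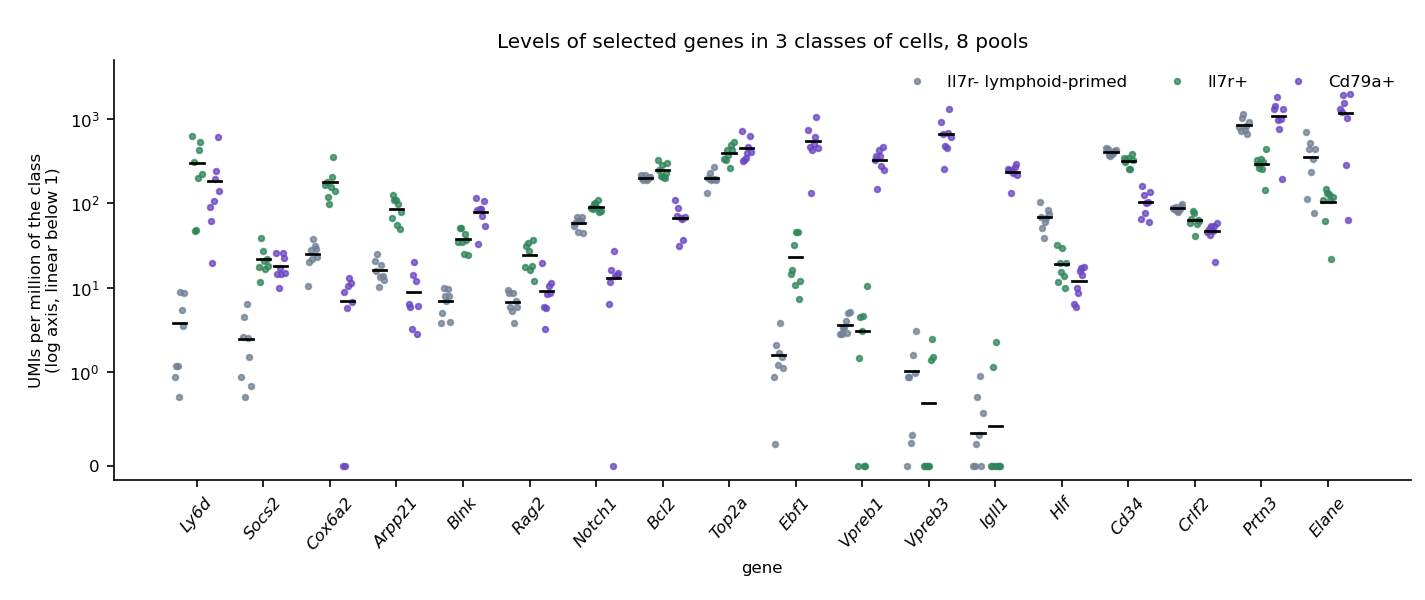
CPM (vertical, log axis that is linear below 1) of 18 genes in the Il7r- lymphoid-primed, Il7r+ and Cd79a+ cells; each point is 1 of 8 pools and black bars are means. Socs2, Arpp21, Blnk and Rag2 of the Il7r+ pools lie above the Il7r- pools, Hlf lies below them, and Vpreb1, Vpreb3 and Igll1 stay below every Cd79a+ pool.

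Cell cycle genes were higher as a group. In the G2/M list, 20 of 22 tested genes were higher and none was lower, with a median log2 fold change of 0.78. Top2a, the topoisomerase that untangles replicated chromosomes, was at 260.2 to 534 CPM over the Il7r+ pools, median 400.1 CPM, and at 131 to 273 CPM in the Il7r- pools (0.95 ± 0.07, edgeR adjusted p = 1.04e-11). Of 19 G1/S genes 9 were higher and none lower, as were 5 of 9 D cyclins, Cdk4, Cdk6 and Cdk inhibitors (Ccnd2, Ccnd3, Cdk4, Cdkn1a and Cdkn2c). At least 1 UMI of Mki67 or Top2a was found in 64.1% of Il7r+ and 51.8% of Il7r- cells, and in 46.5% and 30.1% after thinning. With classes set on thinned counts, 13 of 20 G2/M genes and 3 of 17 G1/S genes were higher and none lower. Of the D cyclins, Cdk4, Cdk6 and Cdk inhibitors, 1 of 9 was then higher (Cdkn2c).

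Stem cell and myeloid genes were lower. Of 14 tested stem cell genes, 9 were lower and none was higher, with a median log2 fold change of -0.41, and with classes set on thinned counts 7 of 11 were lower. Hlf, a stem cell transcription factor, was at 9.86 to 32.1 CPM over the Il7r+ pools, median 17.4 CPM, and at 38.7 to 104 CPM in the Il7r- pools, with no overlap (-1.87 ± 0.15, edgeR adjusted p = 2.67e-11). Cd34 was at 256 to 382 CPM against 367 to 454 CPM (-0.37 ± 0.06, edgeR adjusted p = 6.87e-06), and Myct1, a target of Myc, averaged 9.58 against 35.2 CPM (-1.88 ± 0.18).

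Of 17 tested granulocyte and monocyte genes, 13 were lower and 1 higher (Ly86, encoding the MD-1 partner of a Toll-like receptor homologue), with a median of -1.04. Prtn3 (proteinase 3) had a log2 fold change of -1.56 ± 0.07, Ctsg (cathepsin G) of -1.41 ± 0.08, Mpo of -1.11 ± 0.07 and Ms4a3, a cell cycle regulator of granulocyte progenitors, of -1.93 ± 0.16. Elane was at 22.2 to 149.5 CPM over the Il7r+ pools and at 76.1 to 699.9 CPM over the Il7r- pools, and over the erythroid pools it ran from 49.4 CPM in pool 7, the lowest pool of all 3 classes, to 598 CPM in pool 3. Its log2 fold change of -1.71 ± 0.10 became -0.26 and lost the call with classes set on thinned counts, where 8 of 12 genes of the list were lower. The part of free RNA in these granule genes was not tested. Of the immediate early and heat shock list, 8 of 17 were lower and none higher, among them Fos (-0.38 ± 0.07) and Jun (-0.55 ± 0.08), and of 10 erythroid and megakaryocyte genes 5 were lower. With classes set on thinned counts, 6 of 15 and 1 of 7 genes of these lists were lower. Further decreases named by size included Vldlr (-1.85), Serpina3g (-1.67), Gm15658 (-1.66), the chemokine gene Ccl9 (-1.59) and the cytokine gene Il15 (-1.58). Vldlr and Il15 averaged 5.36 and 5.41 CPM in Il7r+ against 17.5 and 15.4 CPM in Il7r- cells. Vldlr, Il15 and Gm15658 passed the filter on low counts mainly through the Il7r- pools.

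**Figure D3:**
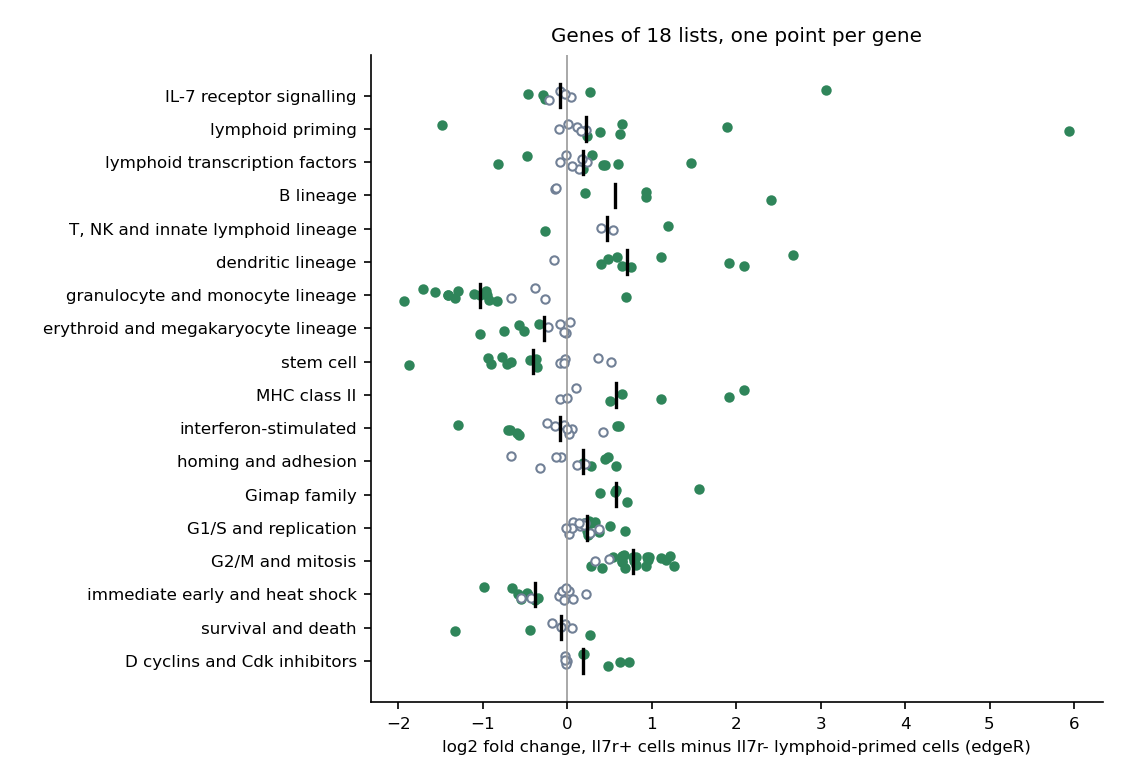
Log2 fold change between Il7r+ and Il7r- lymphoid-primed cells (horizontal) for the tested genes of 18 lists (rows); filled points passed edgeR's adjusted p of 0.05, open points did not, and black bars are list medians. The G2/M genes lie to the right of 0 and most granulocyte and stem cell genes to the left.

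Dendritic genes were also higher, and 40 cells carried most of that difference. Of 10 tested genes of the dendritic list 9 were higher and none lower, with a median log2 fold change of 0.70, and 5 of 8 MHC class II genes were higher, with a median of 0.57. With classes set on thinned counts, 6 of 9 dendritic genes were higher and none lower, with a median of 0.82. Thinned classes left 2 of 7 MHC class II genes higher and none lower, with a median of 0.03. Without the cells that had a Siglech UMI, an alternative chosen after seeing the data, 3 of 9 dendritic genes were higher (Irf8, Tcf4 and Cox6a2) and 1 lower, with a median of 0.27, and 1 of 7 MHC class II genes was higher. Over all genes, that alternative called 416 of 7109 higher and 348 lower. Cd74, the invariant chain of MHC class II, went from 2.09 ± 0.22 (edgeR adjusted p = 1.33e-08) to 0.38 (edgeR adjusted p = 0.287) and H2-Aa from 1.92 ± 0.17 to 0.76 (edgeR adjusted p = 0.0600). Cox6a2, a cytochrome oxidase subunit, kept a log2 fold change of 2.20 against 2.67 with all cells. Of the 862 genes called, 705 were called in the same direction without these cells, and Blnk, Socs2 and Rag2 were among them at 2.23, 3.13 and 1.91.

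The Siglech+ cells stood apart within the class. Siglech encodes the receptor Siglec-H of plasmacytoid dendritic cells, and it had a UMI in 40 of 426 Il7r+ cells (9.39%), in 0.724% of Il7r- cells, in no Cd79a+ cell and in 0.0784% of erythroid cells. These 40 cells had a median of 6166.5 UMIs against 10844.5 in the others. The values that follow are sums over cells chosen on Siglech and are given without a test.

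Ly6d was at 3259 CPM in Siglech+ and 53.6 CPM in Siglech- cells, and 34 of the 40 Siglech+ cells (85.0%) were among the 81 Ly6d+ cells, of which they made up 42.0%. Irf8 and Tcf4, transcription factors of dendritic cells, were at 2316 and 652 CPM against 352 and 175 CPM, and Bst2, an interferon-inducible surface protein, at 1647 against 192 CPM, all higher in 8 of 8 pools. A pool's Siglech+ value rests on few cells: in CVT pool 4, 52 of the 53 Il7r+ cells lacked Siglech. Cd74 was at 1863 against 40.8 CPM, higher in 6 of 8 pools, Spib at 84.0 against 0.448 CPM and the chemokine receptor gene Ccr9 at 203 against 7.62 CPM. Progenitor genes ran the other way: Dntt was at 1014 against 1868 CPM, Cd34 had a UMI in 37.5% of Siglech+ cells against 85.9% of all Il7r+ cells, and Kit in 7.5% against 31.7%. Il7r was at 271 against 166 CPM, higher in 7 of 8 pools.

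Ebf1, the factor that opens the B cell programme, had a UMI in 61 Il7r+ cells (14.3%, or 6.57% after thinning), against 1.21% of Il7r- and 0.705% of erythroid cells. Of these 61 cells, 24 had Ly6d and 6 had Siglech. The Ebf1+ cells had 2986 CPM of Dntt against 1616 CPM in the others, higher in 8 of 8 pools, 73.1 against 14.2 CPM of Socs2 and 77.5 against 33 CPM of Blnk, each higher in 7 of 8. Mki67, which marks dividing cells, was at 239.7 against 139 CPM. Il7r was at 235 against 163 CPM and Cd74 at 19 against 183 CPM. Pax5 had no UMI in any of them, but the rule had left out cells with Cd79a.

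Gata3 or Tcf7, the factors of early T and innate lymphoid cells, had a UMI in 27 Il7r+ cells of 7 pools (6.34%, or 3.76% after thinning), against 3.70% of Il7r- and 2.0% of erythroid cells. None of the 27 had Siglech. Bcl11b, the T lineage commitment factor, was at 144 CPM in them and had no UMI in the other 399 cells, and Zbtb16 (PLZF), a factor of innate-like lymphocytes, was at 109 against 0.886 CPM. Lck was at 179 against 48.5 CPM, Bcl2 at 511 against 232 CPM and Ikzf2 at 105 against 21.5 CPM, each higher in 7 of 7 pools, whereas Irf8 was at 89.7 against 502 CPM and Flt3 at 144 against 238 CPM, lower in 7 of 7. Cd3e had no UMI. Bcl11b had UMIs in 8 cells and Zbtb16 in 10, so that these levels rest on few cells, and 1 cell held 24.3% and 28.6% of them.

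Rag1 or Rag2 was detected in 117 Il7r+ cells (27.5%, or 10.3% after thinning), 6.52% of Il7r- cells and 0.235% of erythroid cells. The Rag+ cells had 2475 CPM of Dntt against 1544 CPM in the others, higher in 7 of 8 pools, and 5.83 against 58.0 CPM of Siglech, lower in 8 of 8. Of the Rag+ cells, 29 also had Ly6d and 23 had Ebf1, which is 37.7% of the Ebf1+ cells and 19.7% of the Rag+ cells. Cells that entered the rule through Flt3 alone had 1129 CPM of Mpo, 1247 CPM of Irf8 and 1076 CPM of Ly6d, and those with Dntt alone had 64.7 CPM of Tcf7 and 77.3 CPM of Bcl11b. Limiting the comparison with Il7r- cells to the 342 cells with both left 720 of the 862 calls in the same direction.

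The 408 Cd79a+ cells, with at least 1 Cd79a UMI and no Procr, stood next along the B lineage, and 29.4% of them had an Il7r UMI. The Cd79a+ class was mixed: Mpo was at 1139 CPM and Car1 at 839 CPM in it, and 44.1% of its cells had Ebf1. The 146 cells with at least 5 Cd79a UMIs, used as an alternative chosen after seeing the data, had 153 CPM of Mpo, Ebf1 in 93.8% and Il7r in 65.8% of cells. Of 5368 genes tested against all Cd79a+ cells, 809 (15.1%) were higher in Il7r+ cells and 739 (13.8%) lower by edgeR.

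Of 13 tested B lineage genes 11 were lower in Il7r+ cells and 2 higher (Cnn3 and Ptpn6), with a median log2 fold change of -3.69. Vpreb3, Igll1 and Vpreb1, components or partners of the pre-B cell receptor, averaged 672, 236 and 328 CPM in Cd79a+ cells and 0.671, 0.43 and 3.04 CPM in Il7r+ cells. These genes passed the filter on low counts through the Cd79a+ pools, where they were high. The classes were split by Cd79a, so B lineage genes detected with it differ in part by that choice. Ebf1 was at 131 to 1066 CPM over the Cd79a+ pools and at 7.39 to 46.1 CPM over the Il7r+ pools (-4.34 ± 0.27, edgeR adjusted p = 6.47e-10). Genes without a UMI in Il7r+ cells were taken against the limit of 3 UMIs over the whole class, 0.629 CPM: Pou2af1 was at least 108-fold higher in Cd79a+ cells, Pax5 at least 68.8-fold, Lef1 at least 55.6-fold, Vpreb2 at least 27.8-fold and Ikzf3 at least 16.8-fold. Mzb1, a chaperone gene of B and plasmacytoid dendritic cells, was lower by a log2 fold change of -3.69 ± 0.23, Id3 by -3.64 ± 0.32 and Ms4a3 by -3.62 ± 0.24.

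Lymphoid priming genes ran the opposite way, with 7 of 9 tested genes higher in Il7r+ cells, none lower and a median of 1.34. Of these 7, Ly6d rested on the Siglech+ cells: its log2 fold change of 0.66 ± 0.24 (edgeR adjusted p = 0.0484) became -1.56 without them (edgeR adjusted p = 0.0116), which left 6 higher and Ly6d lower. Over all genes, 731 of 5044 were higher and 680 lower without the Siglech+ cells. Notch1 was at 78.8 to 111 CPM against 0 to 27.4 CPM in the Cd79a+ pools (2.61 ± 0.22, edgeR adjusted p = 3.87e-08) and Satb1 at 149 to 217 CPM against 20.03 to 42.6 CPM (2.58 ± 0.13, edgeR adjusted p = 1.76e-11). Bcl2 was at 200.1 to 324 CPM against 31.5 to 110.0 CPM (1.91 ± 0.15, edgeR adjusted p = 9.74e-09). The largest increase was Cox6a2 at 4.31 ± 0.18, followed by Gm5111 (3.16), Arpp21 (3.04), Il18rap, a subunit of the interleukin-18 receptor (2.93), Il12a, the p35 chain of interleukin-12 (2.75), Myl10 (2.70), Camk1d (2.68), P2ry14 (2.66) and Cmah (2.65). Apart from Il12a and Myl10, these genes passed the filter on low counts mainly through the Il7r+ pools, where they were high. All 5 tested Gimap genes and 6 of 10 homing genes were higher.

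The choice of Cd79a+ cells decided other lists. Granulocyte genes were lower in Il7r+ cells for 12 of 14 tested against all Cd79a+ cells, but against those with at least 5 Cd79a UMIs 4 of 11 were higher (Mpo, Prtn3, Ctsg and Ly86) and none lower, and Mpo moved from -1.76 to 1.47. G2/M genes were lower for 10 of 22 in the main comparison and for 21 of 21 in the alternative, whose median was -1.31. B lineage genes were lower for 14 of 16, with none higher and a median of -4.52. Lymphoid priming genes were higher for 6 of 8 and none was lower, while Ly6d had a log2 fold change of -0.57 (edgeR adjusted p = 0.0885). Of the 1548 genes called, 1289 could be tested in the alternative and 760 were called in the same direction. Over all genes, the alternative called 723 of 4191 higher and 632 lower.

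The study's own comparison was between CVT and SPF mice. Il7r+ cells made up 1.64%, 1.51%, 1.70% and 1.3% of the cells of SPF pools 1, 2, 7 and 8 and 1.71%, 1.27%, 0.991% and 1.52% of CVT pools 3, 4, 5 and 6. The groups overlapped, at 1.37% ± 0.314 in CVT and 1.54% ± 0.176 in SPF (SD, n = 4 pools each; exact two-sided permutation test over 70 regroupings, p = 0.457; the smallest p possible was 0.0286). The difference of -0.163 percentage points was -0.0346 without CVT pool 5 and -0.275 without CVT pool 3, the ends of its range with a pool left out. Within pools 1 to 4 the means were 1.49% in CVT and 1.58% in SPF, and within pools 5 to 8 1.26% and 1.5%. Among the cells with Dntt or Flt3, Il7r+ cells made up 4.93% ± 0.840 in CVT and 5.76% ± 1.20 in SPF (exact permutation p = 0.314, n = 4 pools each).

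**Figure D4:**
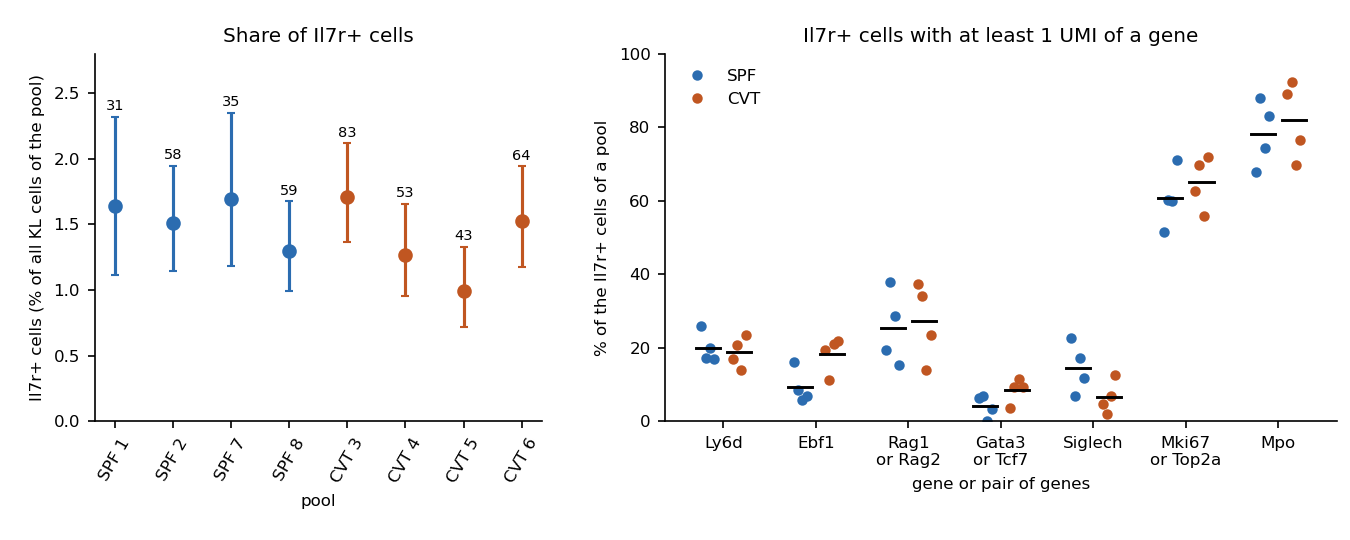
Left, Il7r+ cells as a percentage of all KL cells of each pool with 95% exact binomial intervals (counting error only) and the number of Il7r+ cells above them. Right, percentage of a pool's Il7r+ cells with a UMI of each gene or pair; each point is 1 pool, blue SPF and orange CVT, with black bars for group means, and the groups overlap for all 7.

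The makeup of the Il7r+ cells overlapped between the groups as well. Ebf1+ cells were 16.1%, 8.62%, 5.71% and 6.78% of the Il7r+ cells in SPF pools 1, 2, 7 and 8, and 19.3%, 11.3%, 20.9% and 21.9% in CVT pools 3, 4, 5 and 6. Only CVT pool 4 lay below the highest SPF pool, and the means of 18.4% ± 4.81 and 9.31% ± 4.70 gave an exact permutation p = 0.0571 (n = 4 pools each; 0.429 adjusted over the 9 shares tested). Siglech+ cells were 22.6%, 6.90%, 17.1% and 11.9% in the SPF pools and 4.82%, 1.89%, 6.98% and 12.5% in the CVT pools in the same order, with means of 6.55% ± 4.48 in CVT and 14.6% ± 6.76 in SPF (exact permutation p = 0.143, n = 4 pools each). Gata3 or Tcf7+ cells averaged 8.51% in CVT and 4.18% in SPF (exact permutation p = 0.143, n = 4), a difference of 4.33 percentage points that became 1.39 after thinning (exact permutation p = 0.571, n = 4). The shares with Ly6d, Rag1 or Rag2, Mki67 or Top2a, and Mpo gave exact permutation p of 0.743, 0.83, 0.457 and 0.543.

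No gene was called between CVT and SPF Il7r+ cells in the test without a block. Of 6088 genes tested with edgeR, 0 passed an adjusted p of 0.05 (0%), and by unadjusted p under 0.05 there were 196 genes (3.22%) higher and 200 (3.29%) lower in CVT. DESeq2 also called 0 genes, with 63 higher and 107 lower by the same unadjusted limit. With the sets of pools 1 to 4 and 5 to 8 as a block, 2 genes were called, Hist1h2bc higher and Sdf2l1 lower in CVT (edgeR adjusted p = 0.0459 for both). Over 17 alternatives the adjusted p ran from 2.09e-07 to 0.961 for Hist1h2bc, called in 5, and from 0.000455 to 0.739 for Sdf2l1, called in 3. In counts simulated with the mean levels and UMI totals of these pools, 66.5% of genes changed 2-fold were recovered, so changes of 2-fold or less could be missed. The simulation set the same spread between pools for every gene and did not cover genes that vary more. The genes named next are the 5 with the smallest p in each direction and did not pass the threshold without the block. Separation of the groups follows in part from picking genes by p and, for Glipr2 and Cybb, from the filter on low counts. The share of all tested genes that separate the groups was not counted.

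Sdf2l1, a chaperone gene of the endoplasmic reticulum, was at 146, 110.2, 116 and 117 CPM in SPF pools 1, 2, 7 and 8 and at 79.9, 50.5, 69.1 and 62.5 CPM in CVT pools 3, 4, 5 and 6. The groups did not overlap, with a log2 fold change of -0.84 ± 0.16 (edgeR adjusted p = 0.0796), and -0.71 without the Siglech+ cells. Hist1h2bc, a replication-dependent histone gene, was at 14.6, 36.7, 66.5 and 27.3 CPM in the SPF pools and at 83.3, 107, 99 and 65.3 CPM in the CVT pools, with SPF pool 7 above CVT pool 6 (1.31 ± 0.25, edgeR adjusted p = 0.0796). Mycn, which encodes a Myc family factor, averaged 32.3 ± 4.27 CPM in CVT and 13.6 ± 4.32 CPM in SPF, without overlap (edgeR adjusted p = 0.272).

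Glipr2, Adgrg1 and Sun2 had log2 fold changes of 1.64, 0.66 and 1.09 (edgeR adjusted p of 0.301, 0.374 and 0.387). Cybb, the catalytic subunit of the phagocyte oxidase, Rexo2 and Nip7 had values of -1.93, -0.54 and -0.68 (edgeR adjusted p of 0.272, 0.374 and 0.374). Glipr2 passed the filter on low counts only through the CVT pools, at 16.8 to 25.3 CPM against 2.92 to 9.86 CPM in SPF. Cybb passed it only through the SPF pools, at 18.2 to 39.4 CPM against 1.14 to 12.5 CPM in CVT. Irf8 averaged 389.6 ± 73.4 CPM in CVT and 599.9 ± 126 CPM in SPF (-0.58 ± 0.13, edgeR adjusted p = 0.272), and its log2 fold change was -0.22 without the Siglech+ cells. Ebf1, in the order of its cell share, averaged 33.6 ± 16.6 CPM in CVT and 12.6 ± 3.83 CPM in SPF (1.37 ± 0.37, edgeR adjusted p = 0.413).

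**Figure D5:**
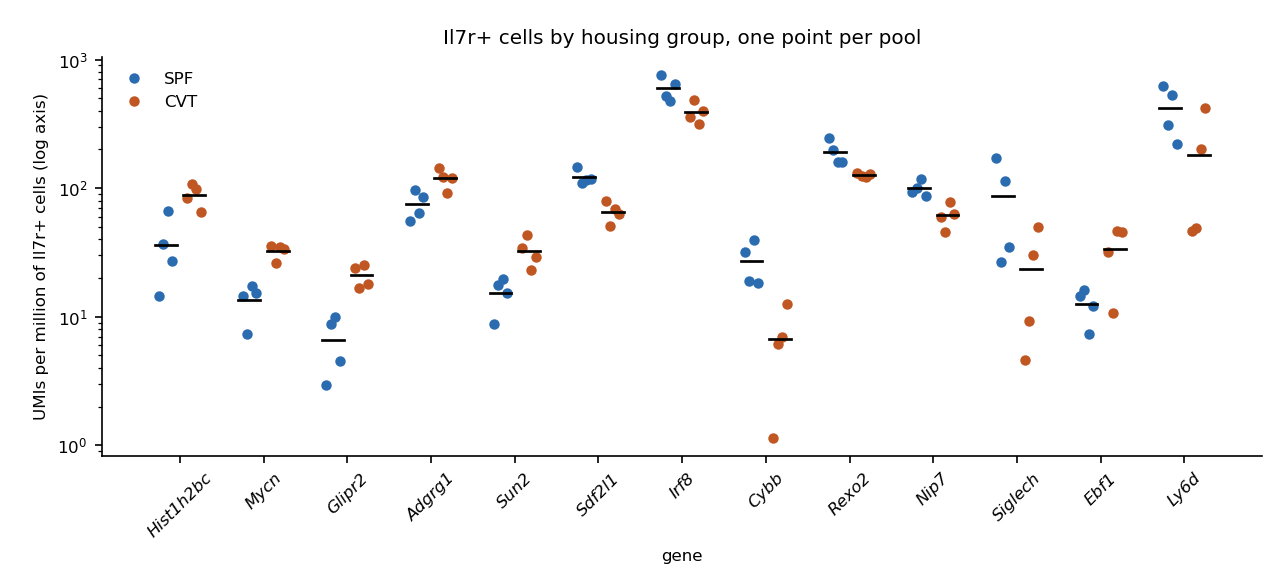
CPM in Il7r+ cells (vertical, log axis) for the 10 genes with the smallest p between housing groups and for Siglech, Ebf1 and Ly6d; each point is 1 pool, blue SPF and orange CVT, with black bars for group means. The groups do not overlap for Sdf2l1, Mycn, Glipr2, Sun2, Cybb, Rexo2 and Nip7, and overlap for the other genes; no gene passed the adjusted threshold without a block, and Hist1h2bc and Sdf2l1 passed it with the pool sets as a block. The 10 genes were picked by p, so separation of the groups follows in part from that choice. Glipr2 and Cybb also passed the filter on low counts only through the group where they were high. The share of all tested genes that separate the groups was not counted, so the separation shown has no background to be read against.

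By list, the dendritic genes had the most one-sided values towards SPF, with 6 of 11 tested lower in CVT and none higher at an unadjusted p under 0.05 and a median log2 fold change of -0.48, against 0.01 over all genes. The share of Siglech+ cells moved with this: without those cells 3 of 9 were higher, none was lower and the median was 0.19. By the same unadjusted limit, 206 of all 5894 genes tested without them were higher and 193 lower. Immediate early and heat shock genes were higher in CVT for 6 of 15 at an unadjusted p under 0.05, with a median of 0.44, and for 8 of 15 without the Siglech+ cells. Jun was among the higher genes, at 194 ± 81.8 CPM in CVT and 123 ± 26.2 CPM in SPF (0.68 ± 0.21, edgeR adjusted p = 0.504). The interleukin-7 signalling list had a median of 0.24 with 2 of 9 higher, and Il7r itself, used by the rule, differed by 0.03 on the log2 scale.

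The pools fell into 2 sets by the mouse numbers in the labels, pools 1 to 4 and pools 5 to 8, each with 2 SPF and 2 CVT pools; whether they were processed apart is not given in the sources used here. A test of whether the housing difference was unequal between the sets called 9 of 6887 genes (0.131%), among them Ly6d. Ly6d was at 628 and 307 CPM in SPF against 46.8 and 49.0 CPM in CVT in pools 1 to 4, and at 527 and 220.0 CPM in SPF against 200.3 and 424 CPM in CVT in pools 5 to 8. It was lower in CVT without overlap in the former set and overlapped in the latter.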

How the data were processed

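Single-cell 3′ libraries (10x Chromium v2) of sorted KL cells from 4 SPF and 4 CVT pools were analysed. The authors aligned reads and assigned barcodes with Cell Ranger, whose version is not given in the sources used here, and the labels' processing notes name genome build mm9. The deposited values are UMI counts per gene and cell, without normalization, and no depth scaling had been applied to them. All 29891 columns were used and none was left unmatched to a pool. The suffix of a cell name gave its pool. Nothing in the labels says more of how pools were processed, so p-values for CVT against SPF measure the spread between pools of 2 or 3 mice. Those between classes, with pool as a block, measure how far the class difference within a pool varied from pool to pool.

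Here UMIs were summed per pool and class and tested with edgeR 4.0.16 (R 4.3.3; TMM, filterByExpr, quasi-likelihood F test), with pool as a block for comparisons of classes and without one for CVT against SPF. The filter on low counts asked for enough counts in as many sums as a class has. A gene could therefore be tested because of the class where it was high. Adjusted p-values are Benjamini-Hochberg over all genes tested, and a call means an adjusted p under 0.05. CPM are counts per 1000000 UMIs of a class in a pool, or over all pools where a subset is given by 1 value. Shares were tested with an exact permutation test that listed every regrouping of the pools. The share among all cells has 95% Clopper-Pearson intervals (scipy 1.17.1) for counting error only. Because the 3′ libraries count molecules, levels of different genes were not compared by length.

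The members and gene lists were chosen with earlier results of these data known. Named genes were the 10 largest fold changes in each direction among calls with the same direction in all 8 pools, or, where fewer than 3 passed, the 5 smallest p; a few genes are not reported here. The tests were checked on simulated counts: 66.5%, 92.5% and 88.9% of genes changed 2-fold were recovered for CVT against SPF, Il7r+ against Il7r- and Il7r+ against Cd79a+ cells. The spread between simulated pools was set to the same value for every gene and was not taken from the data. Doublets were not removed, since Scrublet marked 92 cells (0.308%), too few to have worked; cells above the 95th percentile of UMIs of their pool were left out as an alternative instead. Other alternatives were DESeq2 1.42.0, other size factors and filters, thinning to 2759 UMIs per cell, other classes and each pool left out. No sequences were needed and none was read.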

Additional observations from a re-analysis of the deposited data

Results flagged for a closer look

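The 9 genes below were singled out because the CVT minus SPF difference in Il7r+ cells was unequal between pools 5 to 8 and pools 1 to 4, by an interaction term in edgeR's quasi-likelihood test over 6887 genes. Each value is the difference in pools 5 to 8 minus that in pools 1 to 4, on the log2 scale, with edgeR's adjusted p.

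S100a8, a calcium-binding protein gene of neutrophils, had a value of 2.17 (adjusted p = 7.06e-05) and its partner S100a9 of 1.42 (adjusted p = 0.0189). S100a8 was at 371 and 228 CPM in SPF pools 1 and 2, 252 and 126 CPM in CVT pools 3 and 4, 1326 and 1406 CPM in CVT pools 5 and 6 and 471 and 420.3 CPM in SPF pools 7 and 8. The erythroid cells of the same pools, which should lack it, held 613 to 902 CPM of S100a8 in pools 1 to 4 and 1346 to 1994 CPM in pools 5 to 8. The part of free RNA in the difference was not tested. Ly6d had a value of 3.05 (adjusted p = 0.0019), with its pool values given above. Without the Siglech+ cells, S100a8 was called again and Ly6d was not (edgeR adjusted p of 0.000847 and 0.994).

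Blvrb (biliverdin reductase B) had a value of 3.06 (adjusted p = 0.00718), the metallothionein genes Mt1 and Mt2 of 2.88 and 5.10 (adjusted p = 0.00913 and 0.0291) and Fam132a of 2.68 (adjusted p = 0.0268). SPF pool 2 was the highest of the 8 pools for each of these 4, at 135, 89.6, 79.3 and 80.8 CPM. Mt2 had 0 to 54 UMIs in a pool. The mitotic genes Ccnb1 and Cenpa had values of -2.44 and -1.85 (adjusted p = 0.0251 and 0.0281). Ccnb1 was at 23.4 and 29.4 CPM in SPF and 81.0 and 93.4 CPM in CVT in pools 1 to 4, and at 41.9 and 95.6 CPM in SPF and 23.0 and 57.0 CPM in CVT in pools 5 to 8. Each set has 2 pools per group, and 1 pool can decide such a value.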

How the results depend on the processing

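The direction and the call were kept under most alternatives, and no gene named by size or by p reversed a called direction in its own comparison. Among the list genes followed in the comparison with Cd79a+ cells, 5 did when those cells were limited to at least 5 Cd79a UMIs: Mpo went from -1.76 to 1.47, Prtn3 from -1.80 to 1.59, Ctsg from -2.08 to 1.38, Ccl9 from -0.86 to 1.62 and Nkg7 from -0.42 to 1.63 (log2 fold changes, edgeR), and without Siglech+ cells Ly6d went from 0.66 to -1.56. Genes called between CVT and SPF, 0 in the main test, were 42 with every gene of at least 1 UMI, 1 at Il7r>=2, 1 with classes set on thinned counts, 2 with the pool sets as a block (Hist1h2bc and Sdf2l1), and 0 to 15 with a pool left out (15 without CVT pool 6, 2 without CVT pool 4, 1 without SPF pool 7). Against Il7r- cells, 862 became 296 with thinned counts, 313 with classes set on thinned counts, 568 without the pool block, 2237 with Il7r- cells widened to Dntt or Flt3 and 695 to 818 with a pool left out. DESeq2 called 619 genes and kept 525 of the 862 in the same direction. Against Cd79a+ cells, 1548 became 424 with thinned counts, 745 with classes set on thinned counts and 1179 to 1582 with a pool left out. Thinning leaves fewer genes tested, 3391 of 7195 and 1762 of 5368. Genes with unequal housing differences, 9 in the main test, were 40 with every gene of at least 1 UMI, 4 without Siglech+ cells and 9 to 26 with a pool left out (26 without SPF pool 7). The CVT minus SPF difference in the share with Rag1 or Rag2 went from 1.90 to -1.22 percentage points after thinning and ran from -1.49 to 6.31 with a pool left out. That with Mki67 or Top2a went from 4.25 to -2.36 after thinning, and that with Ly6d, -1.25, ran from -2.81 to 0.69 with a pool left out. After thinning, the differences for Ebf1, Gata3 or Tcf7, Mpo and Ly6d went from 9.04 to 5.10, 4.33 to 1.39, 3.73 to 8.69 and -1.25 to -2.45. The causes were not tested. Pools carry numbers that do not repeat between groups. No paired analysis was possible because CVT and SPF pools share no replicate number, so the pool sets were used as a block instead. An analysis without called doublets was not run, since too few cells were marked. The alternatives without the cells with the most UMIs, with classes set on thinned counts, without Siglech+ cells and with at least 5 Cd79a UMIs, and all those for the unequal housing differences, were chosen after seeing the data. Depth limits single genes: the whole class held 4770913 UMIs, and a gene without a UMI may reach 0.629 CPM.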
